A study of Mus musculus with 4 samples.

Results

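The 7 genes described here encode the MHC class II antigen presentation machinery and were followed in spatial transcriptomes of the mouse heart after myocardial infarction (MI). They were taken by symbol from the 21885 genes counted in every section, and all 7 were found: the chains H2-Aa, H2-Ab1 and H2-Eb1, the invariant chain Cd74, the peptide loading chains H2-DMa and H2-DMb1, and the transactivator Ciita. Visium arrays carried 10 µm cryosections of 4 hearts from Collagen1a1-GFP+ mice of 8 to 12 weeks, which carry GFP under collagen I regulatory sequence: 1 uninjured control, 1 heart 3 days post-infarction (3 dpi) and 2 hearts at 5 dpi. MI was made by permanent ligation of the left anterior descending coronary artery, and the control is a healthy heart rather than a sham-operated one. The control and the 3 dpi heart are labelled female, and the hearts at 5 dpi are labelled female (5 dpi-F here) and male (5 dpi-M). Each section is 1 heart, so the 2 hearts at 5 dpi are the only replicates of a condition.

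After filtering, 1146 to 1741 spots remained per section, with 3742105 to 9540940 UMIs outside mitochondrial genes. A spot is a small region that can hold several cells. The sex labels at 5 dpi do not go with the data: 4 Y-linked genes had 704 UMIs in 5 dpi-F and 1 in 5 dpi-M. Neither label is corrected below, and no difference between these hearts is read as one between sexes. Mitochondrial genes held 40.1% of UMIs in the control and 13.3% to 21.4% in the infarcted sections, so levels are CPM, the UMIs of a gene per 1000000 non-mitochondrial UMIs.

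MHC class II molecules are heterodimers of an alpha and a beta chain that carry peptides from ingested material to the surface of professional antigen-presenting cells, where CD4+ T cells read them. The invariant chain escorts the new dimer to the endosome and blocks its groove, proteases such as cathepsin S trim it away, and the H2-DM heterodimer exchanges its remnant for peptide. Ciita switches the whole set on, is induced by interferon gamma, and works through factors bound at the X and Y boxes upstream of class II genes. In the heart, class II is known mainly from macrophages, dendritic cells and B cells.

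The upstream sequences of 3 members are shown because they hold these boxes. RefSeq promoter entries of build GRCm38.p6 were matched for 4 of the 7 members (H2-Aa, H2-Eb1, H2-DMb1 and H2-DMa, the last with 2 entries), while H2-Ab1, Cd74 and Ciita had none in the table used. The windows are the last 130 bases before the annotated start, at chr17:34287824-34287953 on the minus strand for H2-Aa, chr17:34305737-34305866 on the plus strand for H2-Eb1 and chr17:34153061-34153190 on the plus strand for H2-DMb1. Capitals mark matches to the Y box letters GATTGG, the X1 box CTAGNAAC, and the cyclic AMP element TGACGTCA, the X2 form, searched on both strands.
H2-Aa: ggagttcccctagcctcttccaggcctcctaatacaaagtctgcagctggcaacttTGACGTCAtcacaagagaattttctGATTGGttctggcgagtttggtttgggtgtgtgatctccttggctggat
H2-Eb1: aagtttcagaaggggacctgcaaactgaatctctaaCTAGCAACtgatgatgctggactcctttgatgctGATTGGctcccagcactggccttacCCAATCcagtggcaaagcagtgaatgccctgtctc
H2-DMb1: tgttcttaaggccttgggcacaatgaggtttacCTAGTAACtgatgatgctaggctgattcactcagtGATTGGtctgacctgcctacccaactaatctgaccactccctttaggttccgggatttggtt
In H2-Eb1 a Y box lay 60 to 55 bases before the start, another on the opposite strand at 35 to 30, and the X1 box CTAGCAAC 94 to 87 bases before it. H2-DMb1 had nearly the same layout, with the Y box at 62 to 57 and the X1 box CTAGTAAC at 97 to 90. H2-Aa had the Y box at 49 to 44 and the cyclic AMP element at 74 to 67, with no match to the X1 letters. Neither H2-DMa window of this length held a Y and an X1 match together, and its single match was a GATTGG 199 to 194 bases before the start of the second entry, outside the 130 bases. Among all 32851 promoter entries, read over 250 bases before the start, 14.6% held the Y box letters, 3.06% the X1 letters, 1.55% the cyclic AMP element and 0.405% both the Y and X1 letters. The letters were chosen with these windows in view, and a match is not a shown binding site.

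Over whole sections, every member was lowest in the control and higher in each of the 3 infarcted sections. The order of the levels was control, 3 dpi, then both 5 dpi sections for all 7. Cd74, the invariant chain, was at 248 CPM in the control (95% exact Poisson interval 233 to 265), 396 CPM at 3 dpi, 725 CPM in 5 dpi-F and 807 CPM in 5 dpi-M. The sum of the 7 members was 537, 853, 1504 and 1515 CPM in the same order, with a 5 dpi mean of 1510 ± 8.37 (SD, n = 2). Both 5 dpi hearts thus lay close together in the sum and 1.76-fold and 1.78-fold above 3 dpi. They were close over whole sections only. In the bands of cardiomyocyte share defined below, 5 dpi-F and 5 dpi-M had 1715 and 2434 CPM (low) and 795 and 331 CPM (high). With 1 section for the control and 1 for 3 dpi there is no test between them, and intervals cover counting error only.

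The chain genes followed the same order. H2-Aa, the alpha chain of the A molecule, was at 95.4, 131, 230 and 197 CPM in the control, at 3 dpi and in 5 dpi-F and 5 dpi-M. H2-Ab1, its beta chain, was at 86.8, 161, 269 and 256 CPM. H2-Eb1, the beta chain of the E molecule, was at 84.2, 112, 209 and 201 CPM. At 3 dpi these were 1.37, 1.86 and 1.33 times the control for H2-Aa, H2-Ab1 and H2-Eb1, and at 5 dpi each was above 2 times the control in both hearts. The counting intervals of the 5 dpi sections overlapped for H2-Eb1 and H2-Ab1 and did not for H2-Aa and Cd74, where the order of the 2 hearts was opposite. At 5 dpi the mean ± SD (n = 2) was 213 ± 23.7 CPM for H2-Aa and 766 ± 57.7 CPM for Cd74.

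The loading and regulatory members had few UMIs. H2-DMa stood at 9.09 CPM in the uninjured heart, 25.1 at 3 dpi, 31.7 in 5 dpi-F and 25.7 in 5 dpi-M. H2-DMb1 was at 11 CPM in the control and 22.7, 32.8 and 23.3 CPM in the infarcted sections, counted beside the near-identical paralog H2-DMb2 (1.60, 4.30, 4.82 and 5.05 CPM), so the split of reads between them is uncertain. Between 3 dpi and 5 dpi-M, H2-DMa and H2-DMb1 each differed by 1.03-fold, well inside their counting intervals. Ciita had 7 UMIs in the control (1.87 CPM) and 34, 49 and 52 UMIs in the infarcted sections (4.06, 5.14 and 6.25 CPM), and its control interval overlapped that of 3 dpi.

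Read against all genes, the rise over the control is a common pattern and the step from 3 to 5 dpi less so. Ciita passed the filter of at least 5 CPM in a section only through the 5 dpi sections, so it is left out of these counts. The other 6 members were higher than the control in 3 of 3 infarcted sections, as were 64.2% of the 10969 genes that passed. At least 2-fold in 3 of 3 sections were H2-DMa and H2-DMb1, 2 of 6, against 25.3% of genes. Both 5 dpi sections lay above 3 dpi for 6 of 6, against 30.6% of genes. A level per section mixes how much infarct the section holds with how much RNA that tissue carries, and in such samples fewer cells of a type and less RNA per cell cannot be told apart.

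**Figure D1:**
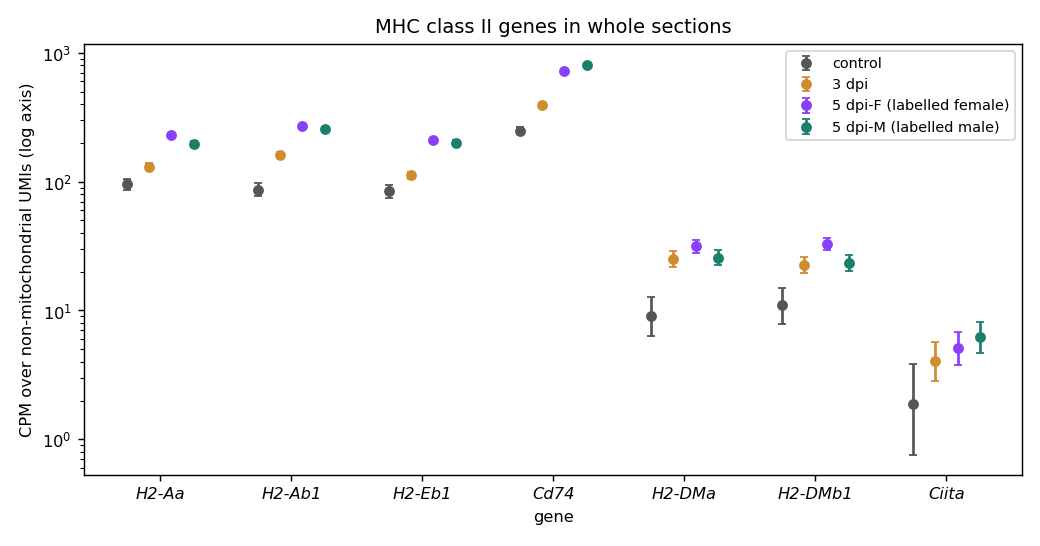
CPM over non-mitochondrial UMIs (log axis) of the 7 MHC class II genes in the control, 3 dpi and both 5 dpi sections; bars are 95% exact Poisson intervals, which cover counting error only. The control point is the lowest for each gene, and Cd74 spans 248 to 807 CPM.

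To separate infarct from surviving muscle, spots were banded by the share of 12 cardiomyocyte marker genes in their UMIs: low for under 0.25 times the 90th percentile of the section, high for at least 0.75 times, and middle between. The low band held 516 spots at 3 dpi, 952 in 5 dpi-F and 591 in 5 dpi-M, and no spot of the control. Every member was highest in the low band of every infarcted section. The members' sum was 1380, 626 and 330 CPM in the low, middle and high bands at 3 dpi. It was 1715, 1157 and 795 CPM in 5 dpi-F and 2434, 879 and 331 CPM in 5 dpi-M. The gradient was thus shallowest in 5 dpi-F, at 2.16-fold, against 4.19-fold and 7.36-fold, and its high band was the highest of the 3.

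UMIs summed per section and band were then compared over the 3 infarcted sections with the section as a block. In the low against the high band 7 of 7 members rose by edgeR (quasi-likelihood test, Benjamini-Hochberg adjustment), against 28.4% of the 11312 genes tested, and 0 fell, against 27.4%. Ciita passed the filter on low counts through its low-band sums, which is where it is high, so its call says little, while the other 6 all rose. Their median log2 fold change was 1.47, where the median of all genes tested was 0.05. TMM scaling sets these fold changes -0.463 from those of plain CPM on the log2 scale. When the sums were instead scaled to 8 macrophage marker genes, 0 of 7 members rose and 5 fell, where 90.8% of all genes fell.

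Among the chains, H2-Ab1 was at 251 CPM in the low and 58.5 CPM in the high band at 3 dpi, at 307 and 152 CPM in 5 dpi-F, and at 413 and 49.4 CPM in 5 dpi-M. Its 3 low-band values did not overlap its 3 high-band values, and its log2 fold change was 1.57 (SE 0.23, adjusted p = 2.44e-05, edgeR). H2-Aa was at 211, 261 and 304 CPM in the low bands of the 3 sections and at 48.3, 133 and 57.7 CPM in the high bands. Its log2 fold change was 1.36 (SE 0.19, adjusted p = 1.05e-05, edgeR). H2-Eb1 was at 178, 235 and 315 CPM against 51.1, 113 and 52.1 CPM, with a log2 fold change of 1.37 (SE 0.20, adjusted p = 1.76e-05, edgeR). The 3 chains therefore gave fold changes within about their standard errors of each other.

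Cd74 was at 666 CPM in the low and 143 CPM in the high band at 3 dpi, at 831 and 375 CPM in 5 dpi-F, and at 1309 and 160 CPM in 5 dpi-M. Its log2 fold change was 1.67 (SE 0.22, adjusted p = 6.80e-06, edgeR), and the low-band values lay above all high-band values. Relative to the 3 chains, Cd74 gave 93.2 UMIs per 100 chain UMIs in the control, 97.9 at 3 dpi, 102 in 5 dpi-F and 124 in 5 dpi-M. In the low band of that last section the ratio was 127, against 104 and 103 in the other low bands.

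H2-DMa was at 32.0, 35.2 and 40.6 CPM in the low bands at 3 dpi and in 5 dpi-F and 5 dpi-M, and at 15.9, 15.8 and 7.87 CPM in the high bands. Its log2 fold change of 1.04 (SE 0.25, adjusted p = 0.00214, edgeR) was the smallest of the 7. H2-DMb1 was at 35.7, 39.3 and 40.1 CPM against 11.9, 6.13 and 2.19 CPM, a log2 fold change of 2.08 (SE 0.34, adjusted p = 6.07e-05, edgeR). The low-band levels of these loading chains were alike in the 3 hearts, and the high-band values behind the fold changes rest on 5 to 28 UMIs. Ciita was at 6.84, 6.14 and 11.2 CPM in the low bands, from 22, 41 and 47 UMIs. In the high bands it had 1, 0 and 3 UMIs, and for the section with none the low band was at least 2.34-fold higher, taking 3 counts in that band as the floor. Its log2 fold change of 2.89 (SE 0.64, adjusted p = 0.00112, edgeR) depends on the prior count used for such low values.

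**Figure D2:**
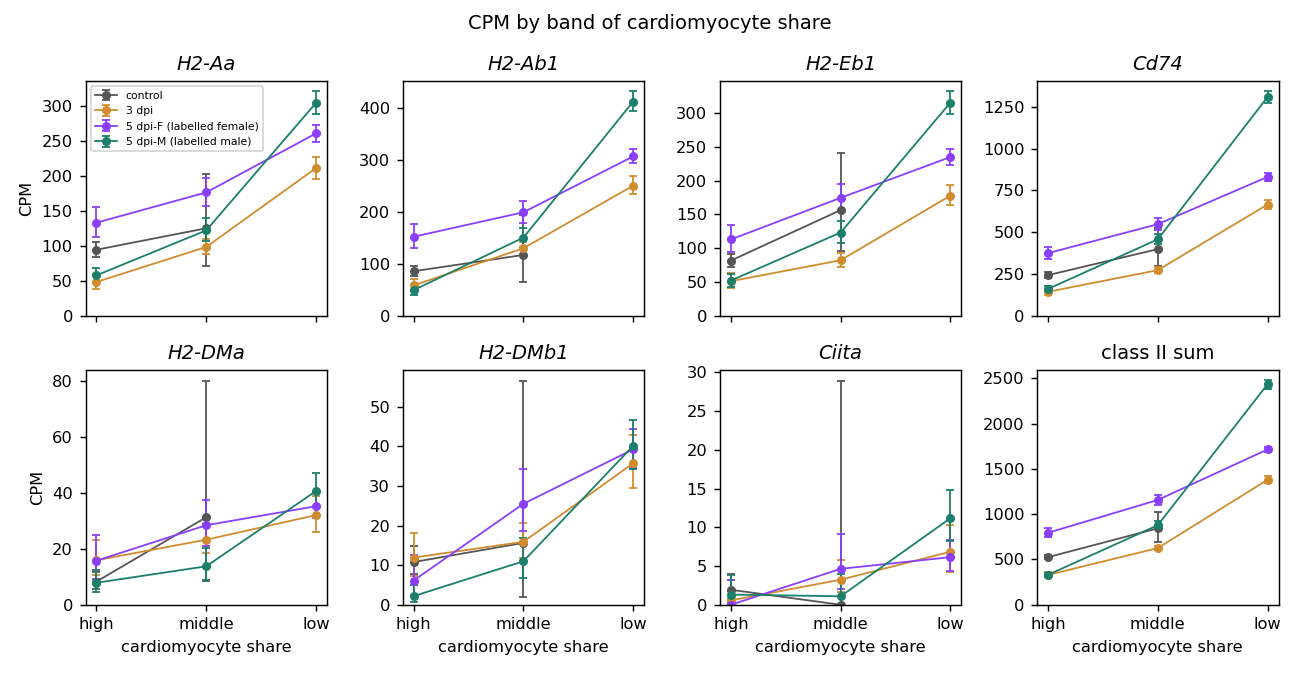
CPM of each MHC class II gene and of their sum in spots of high, middle and low cardiomyocyte share, 1 line per section, with 95% exact Poisson intervals; the control has no low band and 47 spots in its middle band. In each infarcted section the low band is the highest for every gene on this CPM scale (sum 1380, 1715 and 2434 CPM); in the fit over the 3 sections scaled to macrophage markers, where 90.8% of all genes fell, 0 of the 7 rose and 5 fell.

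Part of the difference was present in spots of intermediate cardiomyocyte share. In the middle against the high band 5 of 7 members rose, against 10.4% of all genes tested, and 0 fell, against 11.7%, by edgeR (quasi-likelihood test, Benjamini-Hochberg adjustment). The log2 fold changes were 0.59 for H2-Aa (adjusted p = 0.0351), 0.78 for H2-Ab1 (adjusted p = 0.0261), 0.63 for H2-Eb1 (adjusted p = 0.0351), 0.74 for Cd74 (adjusted p = 0.0215) and 1.14 for H2-DMb1 (adjusted p = 0.0488). H2-DMa (0.55, adjusted p = 0.185, edgeR) and Ciita (1.78, adjusted p = 0.132, edgeR) did not pass. These calls changed with the sections used: without 5 dpi-M 0 of 7 passed, without 5 dpi-F 3, without 3 dpi 4, and with band limits at 0.5 and 0.75, zones in place of bands or no section block 0.

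Within the low band, 6 of 7 members were higher in both 5 dpi sections than at 3 dpi, against 28.5% of 10842 genes. Ciita was the exception, with 6.84, 6.14 and 11.2 CPM. For H2-Ab1, H2-Eb1, Cd74 and H2-DMa the 2 hearts at 5 dpi differed from each other by more than the lower of them did from 3 dpi, and no test was made. Macrophage markers in the same low bands stood at 8613, 11971 and 11644 CPM.

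The muscle-rich band did not move in 1 direction from the control. At 3 dpi and in 5 dpi-M, the high-band levels of H2-Aa, H2-Ab1, H2-Eb1 and Cd74 were 0.51 to 0.68 and 0.58 to 0.66 times those of the control's high band (94.4, 85.8, 81.6 and 243 CPM). In 5 dpi-F the same 4 genes were 1.38 to 1.78 times the control. Of the 6 members with enough UMIs to compare, 4 were below the control in both of the former sections, as were 25% of genes, and 5 were above it in the latter, as were 65%. Macrophage markers in the high bands were above the control in all 3 sections, at 1664, 1944 and 1421 CPM against 867, so at 3 dpi and in 5 dpi-M they lay on the other side of the control from the class II chains. The mitochondrial share of UMIs in these bands was 40.3% in the control, 39.0% at 3 dpi, 40.8% in 5 dpi-F and 28.7% in 5 dpi-M, and its part in the values was not tested.

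**Figure D3:**
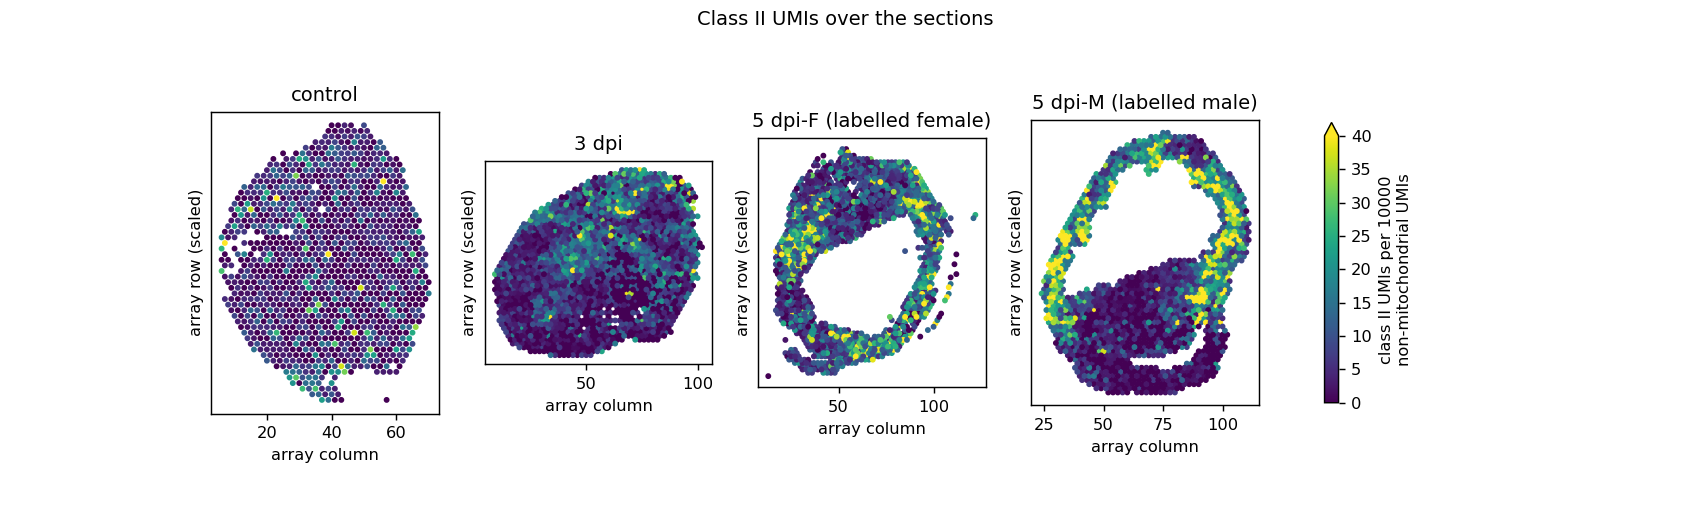
Class II UMIs per 10000 non-mitochondrial UMIs in each spot, drawn at its array row and column, in the 4 sections, each drawn at its own size; the colour scale ends at 40. High spots are scattered in the control and gathered in patches in the infarcted sections.

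By distance the class II sum peaked inside the infarct but not at its deepest part. The infarct zone was drawn as connected patches of at least 10 spots with under 0.5 times the reference share, and distance is in spot steps from its edge, in steps chosen with the data in view. At 3 dpi the sum was 1180 CPM more than 8 steps inside, 1484 at 5 to 6 steps, 857 at 1 to 2 steps inside, 444 at 1 to 2 steps outside and 324 more than 8 steps outside. In 5 dpi-F it was 1408 CPM more than 8 steps inside, 2661 at 3 to 4 steps inside, 1561 at 1 to 2 steps inside and 897 more than 8 steps outside. In 5 dpi-M the same positions gave 2302, 2806, 1476 and 229 CPM. The highest value stood 3 to 6 steps inside in each section, with lower values towards the centre. The 8 macrophage markers described below had their own profiles, and their part in the class II values was not tested. In 5 dpi-F they were highest where class II was, at 14860 CPM 3 to 4 steps inside, against 11087 more than 8 steps inside. At 3 dpi they were highest more than 8 steps inside, at 9940 CPM against 7713 at 5 to 6 steps, and in 5 dpi-M at 7 to 8 steps, at 12745.5 CPM against 9265 at 3 to 4 steps. Outside the edge, 5 dpi-M fell steadily with distance while 5 dpi-F stayed between 831 and 907 CPM.

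**Figure D4:**
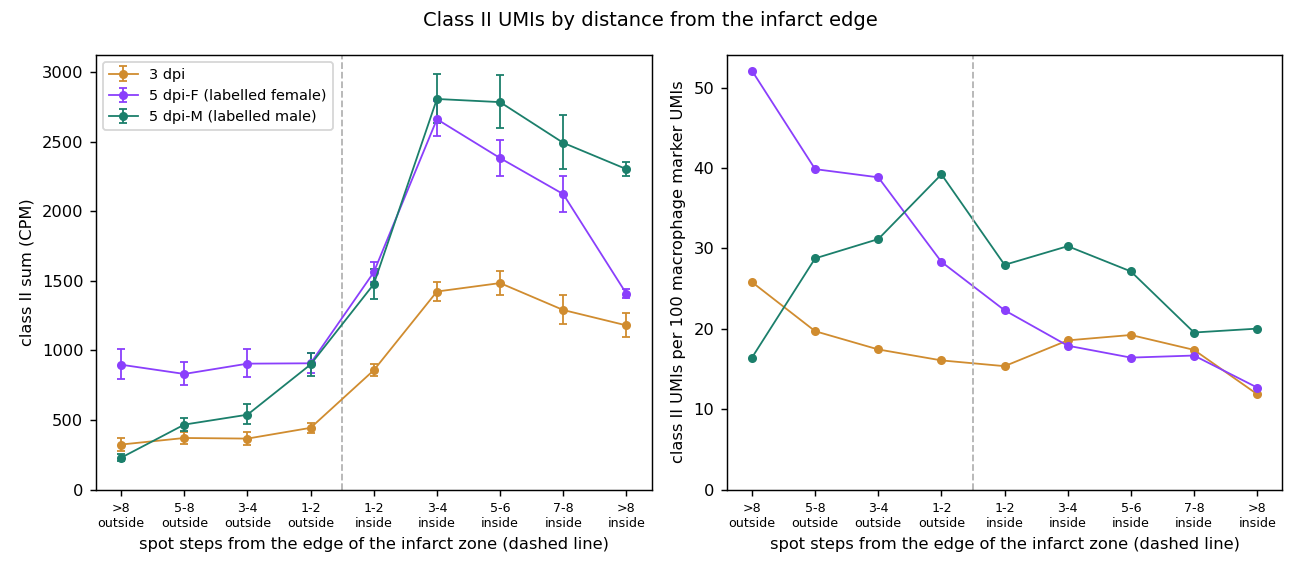
Left, CPM of the class II sum with 95% exact Poisson intervals; right, class II UMIs per 100 UMIs of 8 macrophage marker genes, both by spot steps from the infarct edge (dashed line) in the 3 infarcted sections. The left panel peaks 3 to 6 steps inside, while the right panel is lowest more than 8 steps inside at 3 dpi and in 5 dpi-F.

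Set beside macrophage RNA, class II was lower in the infarcted sections than in the control section. The 8 macrophage markers (Cd68, Csf1r, Adgre1, Lyz2, C1qa, C1qb, C1qc and Fcgr1) were all detected and summed to 890 CPM in the control, 5139 CPM at 3 dpi, and 9374 and 6901 CPM in 5 dpi-F and 5 dpi-M. There were 60.3 class II UMIs per 100 marker UMIs in the control (95% interval 57.0 to 63.8). At 3 dpi the ratio was 16.0 in the low band and 19.8 in the high band. It was 14.3 and 40.9 in 5 dpi-F and 20.9 and 23.3 in 5 dpi-M. Every infarcted band lay below the control's 60.7 in its high band, and the low band lay below the high band in 3 of 3 sections. In 5 dpi-M, though, the middle band was the highest at 31.3, and with zones in place of bands the infarct zone gave 21.5 and spots more than 4 steps outside it 21.3.

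The order of the bands in this ratio also changed with the markers chosen, while every infarcted band stayed below the control with each choice tried. Over C1qa, C1qb and C1qc alone, complement genes of mature macrophages, the control had 123 class II UMIs per 100, and the low and high bands had 42.5 and 37.7 at 3 dpi, 36.2 and 75.7 in 5 dpi-F, and 48.0 and 42.4 in 5 dpi-M. The low band was then below the high band in 1 of 3 sections, and the same count was reached without Lyz2. Scaling the band sums to the 8 markers in the edgeR fit turned the low against high change to -0.85 for H2-Aa (adjusted p = 0.00096), -0.65 for H2-Ab1 (adjusted p = 0.013), -0.86 for H2-Eb1 (adjusted p = 0.00089), -0.55 for Cd74 (adjusted p = 0.0446) and -1.17 for H2-DMa (adjusted p = 0.00011). H2-DMb1 gave -0.09 and Ciita 0.68 under this scaling, neither passing. As 90.8% of all genes fell on this scale, the 5 calls say only that these genes rose less towards the low band than the markers did.

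**Figure D5:**
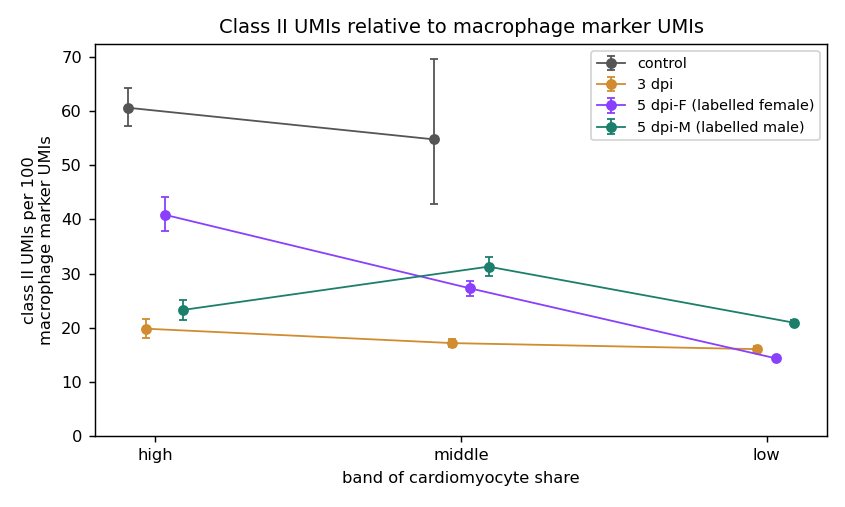
Class II UMIs per 100 UMIs of 8 macrophage marker genes by band of cardiomyocyte share in each section, with 95% intervals for counting error. All infarcted bands lie below the control's 60.7 in the high band, and the low bands lie at 16.0, 14.3 and 20.9.

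Markers of the cells that could carry class II moved with it as follows, and their part in the class II values was not tested. By edgeR, 8 of 8 macrophage and 5 of 5 monocyte markers rose in the low against the high band, while of 5 tested resident macrophage markers Mrc1 rose and Lyve1, Cd163 and Cbr2 fell. Beside these counts and those that follow, 28.4% of all 11312 genes tested rose and 27.4% fell. Of 9 dendritic cell markers 3 were tested and 2 rose, Itgax and Fscn1, which macrophages and other cells also express. Their summed level was 266, 251 and 264 CPM in the low bands against 71.6, 107 and 104 CPM in the high bands, most of it Fscn1 (210, 209 and 215 CPM in the low bands). Zbtb46, the third tested, did not pass (log2 fold change -0.50, adjusted p = 0.125, edgeR). It was at 10.6, 8.99 and 9.98 CPM in the low bands and had 27 UMIs in the control. Of the untested genes, Xcr1, Clec9a, Flt3 and Cd209a were at 3.80 CPM or less in every low band and had 0 to 2 UMIs each in the control. Ccr7 was at 6.53, 1.65 and 4.04 CPM in the low bands, and Siglech at 1.24, 0.899 and 0.238 CPM. B cell markers summed to 23.3, 20.4 and 24.9 CPM in the low bands and 5.11, 8.75 and 1.75 CPM in the high bands, and of the 2 tested Cd79b rose, while Cd79a passed the filter on low counts only through its low-band sums, so its call says little. Of 7 listed T cell markers, no gene under the symbol Trbc2 was counted and the other 6 had too few counts to test. The low-band sums of these 6 were 14.0, 11.1 and 9.50 CPM. Markers of cells not known mainly for class II also rose in the low band: 3 of 4 neutrophil markers (S100a8, S100a9 and Csf3r), 4 of 7 fibroblast markers (Col1a1, Col1a2, Pdgfra and Postn, while Gsn fell) and the epicardial marker Msln. The other epicardial genes with a call, Upk1b and Upk3b, passed the filter only with their low-band sums. Epicardial markers summed to 78.4 CPM in the low band of 5 dpi-F, against 8.08 CPM at 3 dpi and 15.7 CPM in 5 dpi-M. Neutrophil markers stood at 346, 267 and 246 CPM in the low bands at 3 dpi, in 5 dpi-F and in 5 dpi-M, and at 29.5, 81.4 and 24.5 CPM in the high bands. Of 6 endothelial markers 4 fell and none rose.

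The genes whose distribution over spots was most like the class II sum included 3 of the 8 macrophage markers, C1qb, Lyz2 and C1qc. Ranked by the mean over the 4 sections of Pearson's r of log counts over spots, the first 10 of 5262 genes were Apoe (0.41), Ftl1 (0.38), C1qb (0.38), Lyz2 (0.38), Fcer1g (0.38), Tyrobp (0.37), Ctss (0.36), C1qc (0.34), Tmsb4x (0.34) and Cd52 (0.34). The median over genes was 0.03. Apoe stood at 0.70 in 5 dpi-M, 0.38 at 3 dpi, 0.35 in 5 dpi-F and 0.20 in the control, and nothing is read from the weak value in uninjured muscle. Spots of 1 section share a library and differ in depth and cardiomyocyte share, so these are descriptions. Of the 10, 8 stayed among the first 10 when each spot was summed with its neighbours. Over the infarcted sections alone 7 stayed, and C1qc, Tmsb4x and Cd52 dropped out, which left C1qb and Lyz2 of the macrophage markers.

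Other genes of the class II pathway moved in both directions. Of 20 listed, 16 were tested in the low against the high band, but Cd80, H2-DMb2 and Marchf1 passed the filter on low counts only with their low-band sums and are left out of the counts. Of the other 13, 6 rose and 2 fell by edgeR, beside 27% higher among the 10800 genes that passed the filter without their low-band sums. Among all 11312 genes tested, 27.4% fell. The highest was Ctss, cathepsin S, at a log2 fold change of 3.35 (SE 0.17, adjusted p = 1.40e-10), and the lowest was Rfxank, a subunit of the X box factor RFX, at -0.99 (SE 0.20, adjusted p = 0.00043). Ifi30, the lysosomal thiol reductase, and Lgmn, an endosomal protease, rose as well, with the costimulatory ligand Cd86, Nfya and Creb1. Besides Rfxank, Nfyc of the Y box factor fell, and Rfx5, Rfxap and Nfyb did not pass. H2-Oa, H2-Ob and H2-Eb2 had too few UMIs to test, at 5.94 CPM or less in every low band, and no gene under the symbol H2-Ea was among those counted. The median log2 fold change of the 13 was 0.61, beside 1.47 for the 6 members without Ciita.

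Genes of class I presentation, which displays peptides made inside the cell, were higher for the most part. Of 13, 8 rose and 1 fell in the low against the high band by edgeR, beside 28.4% of all genes higher and 27.4% lower. Their median log2 fold change was 0.67, beside 0.05 for all genes tested. Nlrc5, the class I counterpart of Ciita, was the highest at 1.97 (SE 0.33, adjusted p = 7.60e-05), and the proteasome activator subunit Psme1 the lowest at -0.59 (SE 0.12, adjusted p = 0.0005). Of 11 genes of interferon gamma signalling, 10 were tested, 4 rose and 1 fell, beside 28.4% of all genes higher and 27.4% lower: the chemokine Cxcl10 was the highest at 1.0 (SE 0.34, adjusted p = 0.0203) and the receptor chain Ifngr2 the lowest at -1.39 (SE 0.14, adjusted p = 2.55e-07). Ifng itself had 0, 3, 0 and 2 UMIs in the control, at 3 dpi and in 5 dpi-F and 5 dpi-M, too few to test.

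Class II RNA was found in a larger share of spots in the infarcted sections than in the control. At least 1 class II UMI was found in 63.2% of spots in the control, 78.1% at 3 dpi, and 93.4% and 80.5% in 5 dpi-F and 5 dpi-M. With each spot thinned to 1534 non-mitochondrial UMIs, which leaves out 28 to 226 shallower spots per section, the shares were 45.9%, 58.6%, 75.3% and 62.6%, in the same order. Thinned shares in the low and high bands were 80.8% and 36.4% at 3 dpi, 80.6% and 61.1% in 5 dpi-F, and 89.5% and 33.2% in 5 dpi-M, beside 45.1% in the control's high band.

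The UMIs were also unevenly held. The 5% of spots with the most class II UMIs held between 26.3% and 28.7% of them in each section, while holding 7.24% to 10.0% of non-mitochondrial UMIs. The richest spot had 20 UMIs in the control and 76, 134 and 92 in the infarcted sections. Of these richest spots 45.6% had another as a neighbour in the control, against 72.4% at 3 dpi and 67.1% and 80.3% at 5 dpi. In the infarcted sections 89.7%, 92.1% and 97.2% of them lay in the low band, which held 29.6%, 62.0% and 41.5% of spots. A B cell marker UMI was found in 2 of 57 such spots in the control, 6 of 87 at 3 dpi, and 10 of 76 and 17 of 71 at 5 dpi, and a T cell marker UMI in 0, 8, 9 and 11. The richest spots hold more UMIs in all, and per UMI the B cell markers stood at 7.39 CPM in them and 5.76 CPM in the rest of the control, 22.7 and 11.4 at 3 dpi, 19.7 and 16.8 in 5 dpi-F, and 47.5 and 12.4 in 5 dpi-M. T cell markers stood at 0 and 1.73, 11.9 and 9.15, 15.1 and 9.10, and 22.2 and 5.08 CPM in the same order. The 8 macrophage markers were also higher in the richest spots, at 1396 CPM against 850 in the rest of the control, 9259 against 4682 at 3 dpi, 14692 against 8846 in 5 dpi-F and 13292 against 6375 in 5 dpi-M. Dendritic cell markers stood at 66.5 and 42.1, 266 and 165, 265 and 208, and 315 and 177 CPM. These spots were chosen by their class II UMIs, and the part of these cells in them was not tested.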

How the data were processed

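Per the file headers and the study's methods, the authors ran Space Ranger 1.3.1 and deposited its UMI counts of genes in spots, not normalized. The methods give an Ensembl-based mouse reference with GFP added and the labels mm10, so the build is not settled, and gene positions are given only for RefSeq promoter entries. Spots marked by the authors as under tissue were used if they held 500 or more UMIs and 250 or more genes, with mitochondrial UMIs not above 50%. No doublet caller was run, since a spot is a region.

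CPM was taken over UMIs outside 13 mitochondrial genes. UMIs summed over 3 bands in 3 infarcted sections (9 sums) were compared with edgeR 4.0.16 in R 4.3.3 (quasi-likelihood test, TMM factors, filterByExpr), with section as a block and a Benjamini-Hochberg threshold of 0.05, checked on simulated data; the control entered no test. Each SE printed beside an edgeR fold change was derived as the absolute log2 fold change over the square root of the test's F statistic. edgeR itself does not report it. DESeq2 1.42.0 was an alternative. Depth was 2975.5 to 5494 median non-mitochondrial UMIs per spot. Intervals are exact 95% Poisson or binomial and cover counting error only. Members and gene lists were chosen with earlier results of these data known. The 7 members were named in full; from each pathway list the tested genes with the highest and lowest fold change were named, with others given by count, and names beyond these were added after their values were seen. Likeness was ranked among genes with a UMI in at least 5% of spots of every section.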

Additional observations from a re-analysis of the deposited data

Results flagged for a closer look

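The counts of 5 dpi-M, the 5 dpi section with the label male, include 623 spots outside the tissue mask, which no comparison above used. Class II UMIs there were above the level of the control section and, as a sum, below that of the marked spots of the same section. The sum of the 7 genes was 1392 CPM (95% exact Poisson interval 1343 to 1442), against 537 CPM in the control and 1515 CPM in the marked spots. The values that follow are of the spots outside the mask. Cd74 was at 635 CPM, H2-Ab1 at 258 CPM, H2-Aa at 249 CPM, H2-Eb1 at 194 CPM, and H2-DMa and H2-DMb1 at 25.6 CPM each, with intervals above those of the control. Ciita, with 10 UMIs there, was at 4.49 CPM and its interval overlapped that of the control. The 8 macrophage markers were at 5987 CPM in these spots, below the 6901 CPM of the marked spots of the same section.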

How the results depend on the processing

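In the low against the high band, the 7 members rose under all but 1 of the other settings tried, wherever they could be tested; with zones in place of bands Ciita had too few counts, leaving 6 of 6. Apart from that setting, all 97 refits of single members kept direction and call, and leaving out 1 section gave 7 members each time. The exception was scaling to macrophage marker UMIs, chosen after seeing the data. It gave 0 members higher and 10391 genes called, with log2 values of -0.85 for H2-Aa, -0.65 for H2-Ab1, -0.86 for H2-Eb1, -0.55 for Cd74, -1.17 for H2-DMa and -0.085 for H2-DMb1. In the middle against the high band it gave 0 members and 6959 genes, with -0.28 for H2-Aa, -0.085 for H2-Ab1, -0.24 for H2-Eb1, -0.11 for Cd74 and -0.35 for H2-DMa.

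The middle band was less stable: apart from that scaling, of 70 refits of the 5 called members 33 lost the call, with direction kept in each. Beside 5 members and 2503 genes, the DESeq2 Wald test gave 2 members and 1658 genes, no block for the section 0 and 1509, band limits at 0.5 and 0.75 0 and 756, and zones 0 and 685. Every flagged spot gave 3 members and band limits relative to the control 1. Leaving out 1 section gave 0 to 4 members and 1446 to 1800 genes. The cause was not tested.

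All 7 members stayed above the control over every spot under tissue, with CPM over all UMIs and with CPM without the cardiomyocyte markers, and the class II sum stayed above it by 1.497-fold to 4.06-fold. Per 100 macrophage marker UMIs the sum was below the control, at 16.6, 16.0 and 22.0 against 60.3. The count of sections with a lower class II to macrophage ratio in the low band went from 3 to 1 without Lyz2, to 1 with C1q genes only and to 2 with zones. Thinning moved the share of spots with class II UMIs to 45.9% in the control, 58.6% at 3 dpi, 75.3% in 5 dpi-F and 62.6% in 5 dpi-M. No paired analysis was possible because the labels give no replicate numbers shared between groups; the section was the block in the band tests.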
